A study of Mus musculus with 6 samples.

Results

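The BCL2 family genes examined here are 10 regulators of mitochondrial cell death, chosen by gene symbol: the survival genes Bcl2, Bcl2l1 and Mcl1, the effectors Bax and Bak1, and the BH3-only genes Bid, Bad, Bbc3, Pmaip1 and Bcl2l11. Of these, 8 have a row of their own among 22001 gene symbols in the deposited table. Bax and Bcl2l11 stand only in rows that name a second gene, and their own levels are therefore not given by the table.

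The series labels 6 mammary tumors from female FVBN mice aged 7 weeks: 3 PyMT control tumors and 3 PyMT Elp3 cKO tumors, each from a different mouse and matched for size. PyMT mice carry the polyoma middle T oncogene, and in the cKO group Elp3, the catalytic subunit of the tRNA-modifying Elongator complex, was deleted with MMTV-Cre. The MMTV promoter directs Cre mainly to mammary epithelium; the labels do not give the share of cells recombined or whether controls carry Cre. Epithelial cells were enriched from dissociated tumors, polyA RNA was sequenced, and gene levels are given in FPKM (fragment counts scaled to transcript length and library size), a scale on which levels of different genes can be set side by side.

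The control and Elp3 cKO columns of the same number are identical, with 0 of 24308 rows differing for numbers 1, 2 and 3. The 6 columns are 3 distinct profiles, called profiles 1, 2 and 3, each of which carries both labels. Elp3 itself was listed at 15.6, 17.9 and 19.0 FPKM, over the whole gene, under both labels. No effect of Elp3 loss on these genes can be measured from them, and no test was made. Because the profiles are replicates of no single group, levels are given per profile and not as a mean ± SD; means over the 3 profiles serve to filter and rank genes. Of the 6 epithelial markers, all were abundant, Epcam at 867, 763 and 800.4 FPKM and Cdh1 at 336, 333 and 321 FPKM in profiles 1, 2 and 3. The 5 immune markers with rows of their own summed to 1.11, 1.39 and 1.77 FPKM, the 4 endothelial markers to 17.5, 18.1 and 8.53 FPKM, and the 6 fibroblast markers to 69.3, 143 and 236 FPKM. In bulk samples such as these, fewer cells of a type and less RNA per cell cannot be told apart.

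BCL2 family proteins meet at the outer mitochondrial membrane. Survival members bind and restrain the effectors BAX and BAK, which otherwise form pores that release cytochrome c and lead to caspase activation. BH3-only proteins carry death signals to this switch, either by occupying the survival members or by engaging the effectors. In the mammary gland the same machinery is known for the removal of milk-producing cells after weaning.

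The promoters of 4 members are shown because the 3 survival genes stood at opposite ends of the range of levels and Bbc3 had the widest span among the BH3-only members. Each runs from 250 bases before to 50 bases after a RefSeq start, 5′ to 3′ on the gene's strand (GRCm38.p6). It is the entry nearest the 5′ end of the gene. For Bbc3 that entry, from 16309333, lies inside the gene's row, which begins at 16308511. Capitals mark GC boxes (GGGCGG) and cyclic AMP response element half-sites (TGACG), on either strand.
Mcl1, chr3:95658471-95658770, plus strand: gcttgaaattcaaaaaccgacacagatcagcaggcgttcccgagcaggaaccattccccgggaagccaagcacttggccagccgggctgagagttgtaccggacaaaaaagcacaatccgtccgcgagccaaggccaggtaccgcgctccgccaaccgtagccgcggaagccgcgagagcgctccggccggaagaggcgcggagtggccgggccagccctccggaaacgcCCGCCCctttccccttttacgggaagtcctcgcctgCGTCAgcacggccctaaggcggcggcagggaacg
Bcl2l1, chr2:152831679-152831978, minus strand: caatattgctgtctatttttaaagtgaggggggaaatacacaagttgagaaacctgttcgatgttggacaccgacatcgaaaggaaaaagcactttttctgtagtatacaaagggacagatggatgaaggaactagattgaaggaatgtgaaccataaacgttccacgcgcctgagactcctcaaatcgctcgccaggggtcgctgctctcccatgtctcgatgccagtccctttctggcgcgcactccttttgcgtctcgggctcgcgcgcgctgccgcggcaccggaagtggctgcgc
Bcl2, chr1:106714241-106714540, minus strand: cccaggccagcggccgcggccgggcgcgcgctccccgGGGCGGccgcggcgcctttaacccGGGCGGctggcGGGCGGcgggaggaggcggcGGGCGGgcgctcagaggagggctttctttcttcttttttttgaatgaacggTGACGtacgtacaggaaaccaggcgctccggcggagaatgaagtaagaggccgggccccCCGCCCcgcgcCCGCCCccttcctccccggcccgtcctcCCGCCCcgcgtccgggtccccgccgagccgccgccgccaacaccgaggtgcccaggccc
Bbc3, chr7:16309333-16309632, plus strand: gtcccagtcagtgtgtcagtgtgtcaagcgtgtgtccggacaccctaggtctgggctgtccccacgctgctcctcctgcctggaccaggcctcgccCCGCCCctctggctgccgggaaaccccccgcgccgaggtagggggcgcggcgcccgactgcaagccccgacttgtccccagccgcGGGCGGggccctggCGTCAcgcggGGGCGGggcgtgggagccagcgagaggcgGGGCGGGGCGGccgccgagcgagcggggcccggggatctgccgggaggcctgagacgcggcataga
The Bcl2 promoter held 7 GC boxes and had a GC content of 76.0%, above 96.9% of the 32851 promoters in the RefSeq table. The Mcl1 promoter held 1 GC box at 65.7% GC, and the Bcl2l1 promoter held none at 52.3% GC, near the median of 52.7% over all promoters. The Bbc3 promoter had the same GC content as that of Bcl2 and held 5 GC boxes. Over the 9 members with an entry, counting 1 entry for each, 7 promoters held a GC box, against 35.7% of all promoters. A TGACG half-site, read by CREB and ATF factors, was in 3 of the 9, those of Mcl1, Bcl2 and Bbc3, against 20.8% of all. The TATA box (TATAAA) was in 0 of 9 against 13.6% of all, and the CCAAT box (CCAAT) in 1 of 9 against 37.4%. The E-box (CACGTG), read by MYC, was in 1 of 9, that of Bax, against 7.15%. Shares over all promoters count every entry, and the member counts depend on the entry taken. A further Bbc3 entry held a CCAAT box, an E-box and no half-site, and a further Bad entry a CCAAT box and no GC box. A p53 full site at exact consensus was in 0 of 9 and in 0.0731% of all promoters. These are matches of letters within 300 bases, and a missing match says nothing of sites elsewhere.

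The survival genes were the most and nearly the least abundant members. Mcl1, whose short-lived protein restrains BAK, stood at 134, 121 and 113 FPKM in profiles 1, 2 and 3 (chromosome 3, 95658721 to 95663226, mm10). Bcl2l1, which encodes BCL-XL, stood at 101, 117 and 112 FPKM (chromosome 2, 152780666 to 152831682). Mcl1 was above Bcl2l1 in every profile, by 1.33 times in profile 1 and by 1.04 and 1.01 times in profiles 2 and 3, but their ranges over the profiles overlap. Bcl2, the founding member of the family, stood at 2.64, 2.104 and 3.50 FPKM (chromosome 1, 106538179 to 106714338). It was high in profile 3 and low in profile 2, and every profile of Bcl2 was far below every profile of the other survival genes. The level of Mcl1 was 50.6, 57.6 and 32.4 times that of Bcl2. By mean level Mcl1 ranked 627 and Bcl2l1 ranked 700 among the 22001 gene symbols, and Bcl2 ranked 9309.

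Of the effectors, only Bak1 has a row of its own. Bak1, which encodes a pore former resident on mitochondria, stood at 44.8, 39.9 and 43.4 FPKM (chromosome 17, 27018035 to 27036378). It was the third most abundant member in every profile, and its range overlaps that of no other member. Its row covers the same span as the row of Ggnbp1, which lies on the opposite strand, and 25.5% of the exon bases of Bak1 in GENCODE M21 overlap exons of Ggnbp1. The library kit is not described as keeping strand, so reads there cannot be told apart, and Ggnbp1 was listed at 1.52, 2.13 and 1.06 FPKM. Bax, which encodes the effector that moves from the cytosol to mitochondria, is in a row shared with Ftl1, the ferritin light chain. That row stood at 4303, 5647 and 4343 FPKM (chromosome 7, 45457899 to 45466913), highest in profile 2. Ftl1 lies on the same strand, and in GENCODE M21 the genes do not overlap and are 1812 bases apart. How much of the shared value belongs to Bax is not given, so Bax enters no sum and no order of levels.

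The BH3-only members with rows of their own lay below Bak1 and above or level with Bcl2. Bid, which is cleaved by caspase-8 and links death receptors to mitochondria, stood at 19.0, 15.4 and 17.1 FPKM (chromosome 6, 120893119 to 120916820). Bbc3, which encodes PUMA, a target of p53 that binds the survival proteins broadly, stood at 19.3, 15.3 and 15.2 FPKM (chromosome 7, 16308511 to 16318334). The ranges of Bid and Bbc3 overlap, and their order changed between profile 1 and the other profiles. Bad, held inactive by phosphorylation downstream of growth factor signals, stood at 13.6, 11.95 and 13.1 FPKM (chromosome 19, 6938001 to 6951947), and its range lay below those of Bid and Bbc3. Its row covers the same span as that of Gpr137 on the opposite strand, listed at 9.32, 9.22 and 9.09 FPKM, and 20.5% of the exon bases of Bad overlap exons of Gpr137. Pmaip1, which encodes NOXA, a partner mainly of MCL1, stood at 2.75, 2.20 and 2.60 FPKM. Its range overlaps that of Bcl2, and Bcl2 was the lowest member in profiles 1 and 2 while Pmaip1 was the lowest in profile 3. Bcl2l11, which encodes BIM, is in a row shared with Acoxl, an acyl-CoA oxidase-like gene, at 13.6, 11.9 and 13.3 FPKM (chromosome 2, 127854628 to 128162547). The genes lie on the same strand 2164 bases apart in GENCODE M21, and how the shared value divides between them is not given.

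**Figure D1:**
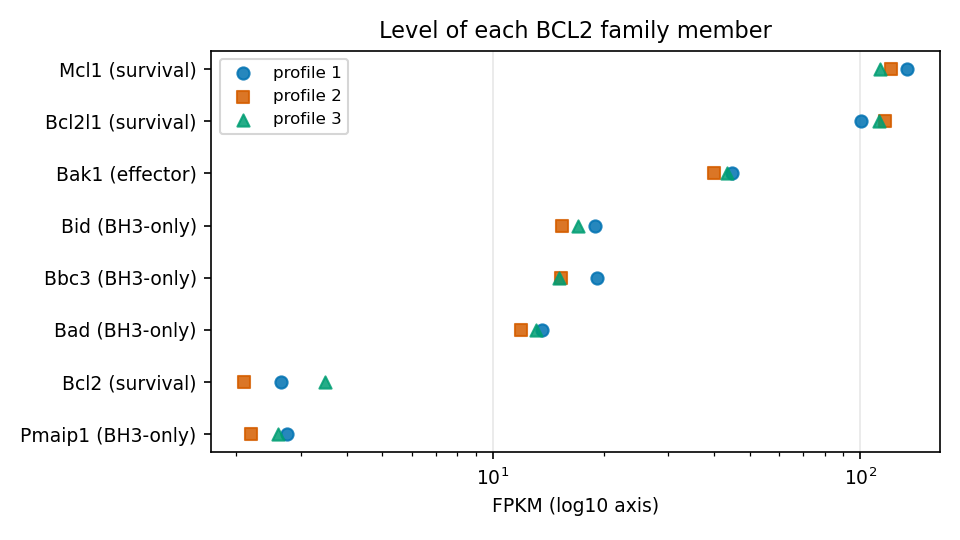
FPKM on a log10 axis for the 8 members with a row of their own, 1 point per profile, sorted by mean. Mcl1 and Bcl2l1 lie above 100 FPKM in every profile, Bak1 lies between 39.9 and 44.8, and Bcl2 and Pmaip1 lie between 2.104 and 3.50.

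All 8 members with a row of their own had a mean of 1 FPKM or more, a level reached by 49.0% of the gene symbols. A mean of 10 FPKM or more was reached by 6 of the 8, against 28.0% of symbols, and 100 FPKM or more by 2 of the 8, Mcl1 and Bcl2l1, against 3.47%. Summed by role, the 3 survival genes reached 237, 240.3 and 229 FPKM. Bak1, the effector that could be counted, held 44.8, 39.9 and 43.4 FPKM, and the 4 BH3-only members reached 54.6, 44.8 and 47.9 FPKM. Survival transcripts thus made up 70.5%, 73.9% and 71.5% of the 3 sums, with Bax and Bcl2l11 left out of them. The BH3-only sum was 0.23, 0.187 and 0.209 of the survival sum, highest in profile 1. Nearly all of the survival sum came from Mcl1 and Bcl2l1.

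The members and the other expressed genes spanned similar ranges across the profiles. The span, meaning the highest minus the lowest profile on log2(FPKM + 1), had a median of 0.23 over the 8 members. Over the 10770 gene symbols with a mean of 1 FPKM or more the median span was 0.27. After median-ratio scaling these medians were 0.263 and 0.27, after quantile normalization 0.271 and 0.272, and without replicate number 3 the members' median, 0.221, was the wider one, against 0.164. Bak1 had the narrowest span, 0.17, and Bcl2 the widest, 0.54, wider than that of 84.7% of those symbols. Bcl2 was the 1 member of 8 to reach a span of 0.5, as did 17.7% of the symbols. Bad spanned 0.17, Bcl2l1 0.21, Pmaip1 0.23, Mcl1 0.24, Bid 0.29 and Bbc3 0.33. On this scale the pseudocount shrinks the span of low genes such as Bcl2 and Pmaip1. With a single profile for each number there is no replicate error to set these spans against.

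**Figure D2:**
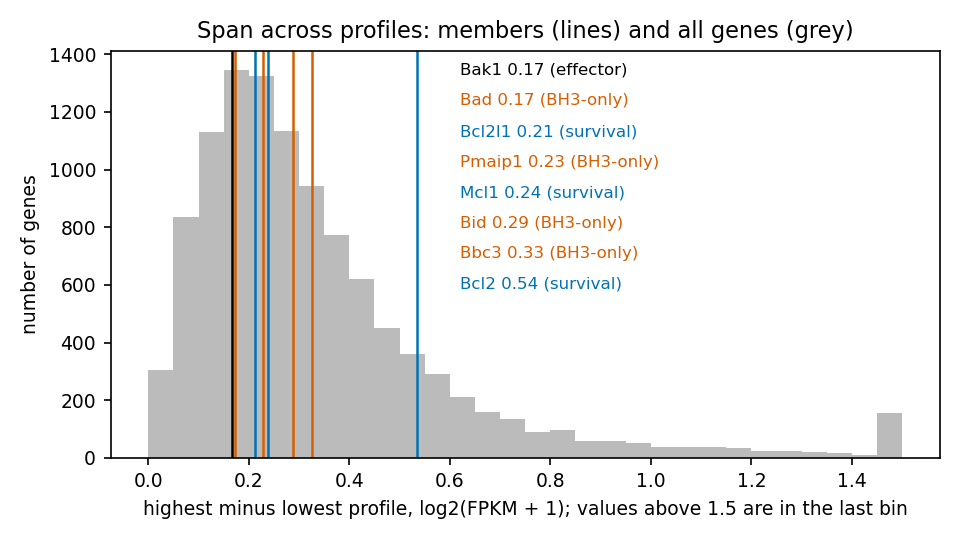
Histogram of the span across profiles on log2(FPKM + 1) for the 10770 gene symbols with a mean of 1 FPKM or more (grey, counts of genes), with a line for each member coloured by role. All members but Bcl2 lie under 0.35, near the median of 0.27 over all these symbols.

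The 5 death-promoting members with rows of their own peaked in the same profile. Bak1, Bid, Bad, Bbc3 and Pmaip1 were each highest in profile 1, as was Mcl1, which makes 6 of 8 members against 34.8% of the 10770 symbols (39.2% and 40.5% after median-ratio and quantile scaling, with 6 of 8 members under both). Bcl2l1 was the 1 member lowest in profile 1, where 40.1% of the symbols were lowest. Bcl2l1 was also the 1 member of 8 highest in profile 2 (28.7% of the symbols), and Bcl2 the 1 member of 8 highest in profile 3 (36.5%). The lowest value was in profile 2 for 5 of 8 members, Bcl2, Bak1, Bid, Bad and Pmaip1 (28.3% of the symbols), and in profile 3 for 2 of 8, Mcl1 and Bbc3 (31.5%). In 4 of 8 members, Bak1, Bid, Bad and Pmaip1, profile 1 was above profile 3 and profile 3 above profile 2, an order found in 15.7% of the symbols. Differences were small: the highest profile was 1.13 times the lowest for Bak1, 1.14 for Bad, 1.23 for Bid, 1.25 for Pmaip1 and 1.27 for Bbc3. The row shared by Acoxl and Bcl2l11 was ordered the same way as Bak1. The row shared by Bax and Ftl1 went the other way, lowest in profile 1 and highest in profile 2. Neither shared row gives the level of the member in it. Profile 1 was also the profile with the lowest sum of fibroblast markers, 69.3 FPKM against 143 and 236. All 6 of those markers were lowest in it, and none of the 6 was listed at 0 in any profile. Their part in the order of the members was not tested.

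**Figure D3:**
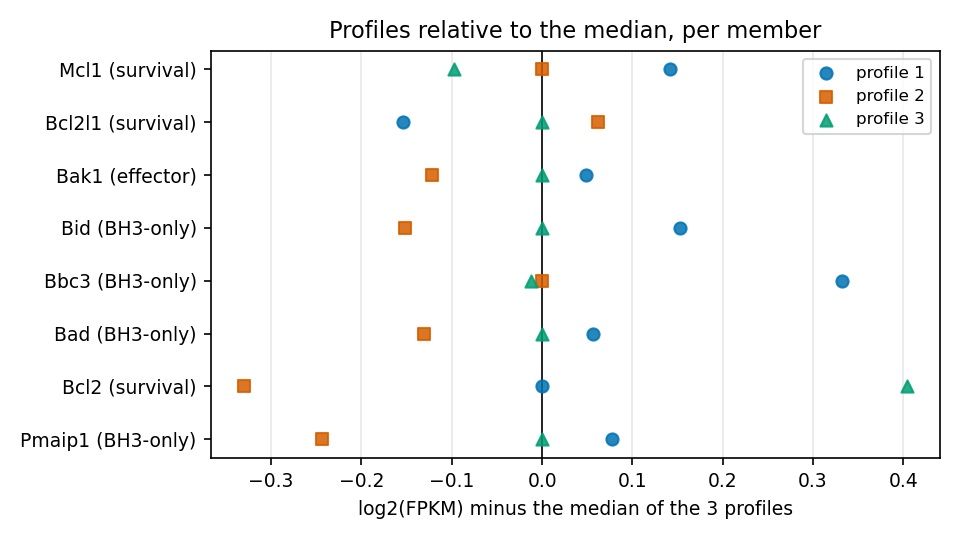
Each profile of each member as log2(FPKM) minus the median of that member's 3 profiles, with 0 marking the median. Profile 1 lies furthest right for Mcl1, Bak1, Bid, Bbc3, Bad and Pmaip1, and furthest left for Bcl2l1.

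Genes with the levels most like a leading member were sought by Euclidean distance on log2(FPKM + 1) over the 3 profiles, among 9892 named genes. Nearest to Mcl1 were Ipo5 (distance 0.07), Atp5f1 (0.07) and Cyc1 (0.07). Nearest to Bak1 were Wnk1 (0.03), Erp44 (0.04) and Acbd6 (0.05). For Bid they were Tmem41b (0.03), Thap11 (0.04) and Tusc2 (0.05). With 3 profiles and so many genes such likeness is a description of level.

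Of 17 other BCL2 relatives, 16 had a row of their own and 11 a mean of 1 FPKM or more, against 49.0% of all symbols. Among survival relatives, Bcl2l2, which encodes BCL-W, stood at 19.6, 26.0 and 20.5 FPKM, above every profile of Bcl2. The BCL2A1 genes and Bcl2l10 stayed under 1 FPKM: Bcl2a1b was listed at 0.25, 0.395 and 0.253 FPKM, and Bcl2a1d at 0 in all 3 profiles. The BCL2A1 genes are close copies of each other, so reads may be split among them. The effector relative Bok stood at 2.88, 2.29 and 1.96 FPKM, well under Bak1. Among BH3-only relatives Bik was more abundant than any BH3-only member, at 25.9, 26.1 and 29.3 FPKM, and Hrk was listed at 0.421, 0.143 and 0.208 FPKM. Bmf, a BH3-only protein bound to the cytoskeleton through dynein light chain, stood at 2.97, 2.85 and 9.14 FPKM, and its span of 1.40 was wider than that of any member. Profile 3 was the high one for Bmf. With these relatives added, the BH3-only sum was 83.8, 73.9 and 86.6 FPKM and no longer highest in profile 1, while the survival sum was 257, 267 and 249.8 FPKM.

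Divergent relatives were among the most abundant. Bnip3 and Bnip3l, receptors for the removal of mitochondria by autophagy, stood at 147, 155 and 113 FPKM and at 94.0, 107 and 100.1 FPKM. Becn1, an autophagy protein with a BH3 domain, stood at 42.0, 49.9 and 47.9 FPKM, and Bnip2 at 35.0, 41.6 and 47.9 FPKM. Bcl2l13, a further mitophagy receptor, had 15.8, 13.9 and 14.2 FPKM, Bcl2l12 had 10.8, 9.24 and 8.84, and Bcl2l14 had 1.22, 1.73 and 2.39.

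**Figure D4:**
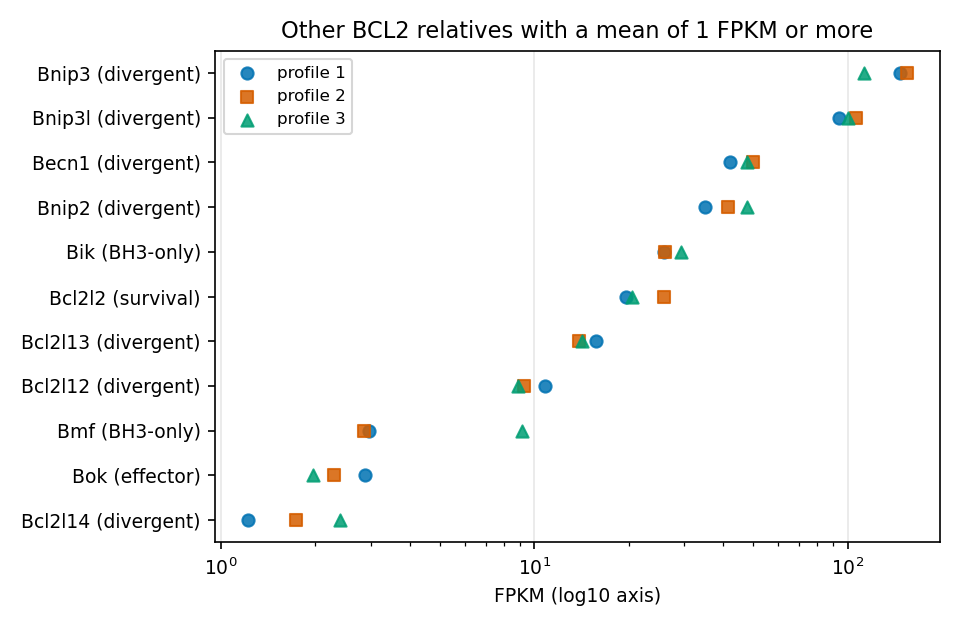
FPKM on a log10 axis for the 11 other BCL2 relatives with a mean of 1 FPKM or more, 1 point per profile, sorted by mean, with the class of each in brackets. Bmf stands out by its profile 3 at 9.14 FPKM against 2.97 and 2.85 in the others.

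The machinery downstream of BAX and BAK was present in every profile. All 12 apoptosome and release genes had a mean of 1 FPKM or more, against 49.0% of all symbols, with a list median of 10.2, 12.9 and 11.8 FPKM. Cycs, cytochrome c, stood at 57.5, 47.9 and 44.0 FPKM, and Diablo, which relieves caspase inhibition, at 24.6, 23.4 and 22.0 FPKM. Both were highest in profile 1, as were 5 of the 12 in all, against 34.8% of expressed symbols. Another 5 of the 12 were highest in profile 3 (36.5%), and 4 were lowest in profile 1 (40.1%). The executioner Casp6 had the widest span of the list, 0.62, at 12.2, 18.5 and 19.3 FPKM. Of 8 inhibitors of apoptosis proteins, 5 had a mean of 1 FPKM or more, a share near the 49.0% of all symbols. Birc5, survivin, stood at 12.95, 17.4 and 14.7 FPKM, Birc3 at 11.2, 13.1 and 18.7 FPKM, and the direct caspase inhibitor Xiap at 9.18, 8.23 and 9.81 FPKM. Of these 5, 0 were highest in profile 1, against 34.8% of expressed symbols.

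Upstream, 11 of 13 death receptor genes had a mean of 1 FPKM or more, against the same 49.0%, with a list median of 11.4, 12.7 and 14.7 FPKM. Tnfrsf1a, the main TNF receptor, stood at 51.8, 59.7 and 56.6 FPKM, the TRAIL receptor Tnfrsf10b at 28.8, 26.6 and 28.5 FPKM, and the adaptor Tradd at 20.6, 17.1 and 18.3 FPKM. Tnfrsf1b, the second TNF receptor, was high in profile 3, at 6.24, 6.84 and 15.6 FPKM. Of 11 transcriptional regulators of BH3-only genes, 10 had a mean of 1 FPKM or more, against 49.0% of all symbols, and 6 of the 10 were highest in profile 1, against 34.8% of expressed symbols (39.2% and 40.5% after median-ratio and quantile scaling). Trp53, the p53 gene, stood at 98.1, 80.5 and 82.0 FPKM, Myc at 130.4, 96.96 and 99.2 FPKM, and the stress factor Atf4 at 354, 269.6 and 322 FPKM. Trp63, the p53 relative of basal epithelium, spanned the most in that list, at 5.55, 7.80 and 4.84 FPKM. All 14 turnover and partner genes with rows of their own had a mean of 1 FPKM or more (49.0% of all symbols). Tpt1, a binding partner of MCL1, stood at 3642, 3860 and 4235 FPKM. The 14-3-3 genes Ywhae and Ywhaz, whose products hold phosphorylated BAD in the cytosol, stood at 468, 455 and 453 FPKM and at 268, 200.1 and 210.0 FPKM. Trim17, an E3 ligase, had the widest span of that list, at 6.32, 9.93 and 5.74 FPKM.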

How the data were processed

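Per the labels' protocols, RNA selected by polyT beads from tumor epithelial cells was sequenced with paired ends. The submitters' processing notes name Cuffdiff, Cufflinks 2.1.1, TopHat2 2.0.9 and the mm10 build. What each tool did, the gene annotation and the filters are not stated there. The authors deposited FPKM per gene in 6 columns matched to samples by name, with 0 columns left unmatched, plus their summary of FPKM.

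The planned limma fit between genotypes was not run because same-numbered columns are identical. Values per profile, medians, ranges, sums by role and spans on log2(FPKM + 1) were computed with Python 3.11.15, pandas 2.3.3 and numpy 2.4.6. A symbol on several rows was read from the row with the highest mean. Row starts are raised by 1: they then equal the RefSeq start in 42.1% of 19610 symbols, against 2.68% as deposited. FPKM gives no counts, so absolute depth is unknown and no counting interval is given. Summed FPKM was 622789, 636842 and 621793. The computations were tested on simulated data. The named genes were all members, relatives averaging at least 1 FPKM, and in each pathway list the 3 highest means and the widest span. A gene that this rule takes is not reported here. Bcl2a1b, Bcl2a1d, Hrk, Epcam and Cdh1 were named after their values were seen. The members and lists were chosen with earlier results of these data known. Alternatives were other scalings, row sums, minimum levels, a pseudocount of 0.1 and leaving out each replicate number.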

Additional observations from a re-analysis of the deposited data

Results flagged for a closer look

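Bcl2a1d, a BCL2A1 survival relative, was listed at 0 in all 3 profiles while the authors' deposited table gave it 0.00702 FPKM in its summary column. The value drew attention because it is above 0 while every column that carries a sample name lists 0.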

How the results depend on the processing

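No paired analysis was possible because each pair of equally numbered columns holds identical values, which leaves differences of 0. The genotype fit and its leave-one-out settings were not run for the same reason. The 48 member levels were recomputed under median-ratio scaling, quantile normalization, row sums and leaving out each replicate number. All moved by less than the SD of the 3 profiles, used here as a yardstick of their spread. Leaving out 1 of 3 profiles always moves a median by less than that SD, and row sums left every level unchanged. The size factors of median-ratio scaling were 0.983, 1.009 and 1.005 for profiles 1, 2 and 3, too near 1 to move any member level by that SD. Only quantile normalization could therefore have exceeded it. Scaling each profile to the same total (as in TPM) moved the median sums by role to 377 (survival), 69.7 (effector) and 77.1 (BH3-only). Most of this came from the larger unit, but the order of the profiles in the survival sum also changed. The BH3-only to survival ratio stayed at 0.209. Leaving out single replicate numbers gave a median member span of 0.12, 0.148 and 0.221 (without numbers 1, 2 and 3), against 0.139, 0.19 and 0.164 over all expressed symbols, so the members' median was the wider one without number 3. With all 3 profiles the members' median of 0.233 (0.269 over all) became 0.263 (0.27) after median-ratio and 0.271 (0.272) after quantile scaling. The count of members highest in profile 1 was 6 under both scalings, where the share over all symbols rose from 34.8% to 39.2% (median-ratio) and 40.5% (quantile). A minimum of 5 FPKM left 6 of 8 members. Leaving out replicates for the pathway lists was added after seeing the data. Those medians moved by less than that SD, which this setting cannot exceed, so it says nothing of their stability. Unknown depth limits what can be said of values near 0.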

Other observations

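The authors' deposited table has a summary column that the sample columns do not account for. Multiplied by 9, it ended at 4 decimals in 85.4% of 6491 rows between 10 and 1000 FPKM, whereas no other multiplier between 2 and 12 gave more than 28.5%. If it is a mean of 9 values in which each profile counts 2 times, 3 further values remain per row, and their mean follows by subtraction. That remainder was below 0 in 0 of 24308 rows. Which samples those values came from is not known, and only their implied mean can be read.

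Under that reading, the implied mean of Bcl2l1 was 60.4 FPKM, under its lowest profile of 101, and its log2 difference from the profile median, -0.88 on log2(FPKM + 1), was lower than that of all but 4.2% of 10770 symbols. Bak1 had an implied 29.3 FPKM, Bbc3 10.2, Bid 13.8 and Mcl1 103, each below its own range over the profiles, as were 42.2% of the symbols. Pmaip1 had 4.69 FPKM and Bad 15.2, above their ranges, as were 29.3% of the symbols, and Bcl2 at 2.58 lay within its range. Of 16 relatives, 7 lay above their ranges (29.3% of the symbols), 4 below (42.2%) and 5 within. Those shares cover only symbols with a mean of 1 FPKM or more, which the BCL2A1 genes, Bcl2l10 and Hrk did not reach. Bcl2a1d, listed at 0 in every profile, counts as above with any value over 0. Those above were Bok (6.29 FPKM), Bcl2l14 (5.25), Bik (38.7), Bnip3 (197), Bnip3l (112), Bnip2 (49.4) and Bcl2a1d (0.0211), and those below were Bcl2l12 (7.90), Bcl2l13 (10.7), Hrk (0.0888) and Bcl2a1b (0.22). The median difference over all symbols was -0.06, with 5% and 95% quantiles at -0.81 and 0.91. Among the relatives, Bok at 1.15 and Bcl2l14 at 1.19 lay above the upper quantile. Of the members, Bcl2l1 alone lay outside those quantiles. These members were read after the column's arithmetic was known, and no test was made.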
